A study of Homo sapiens with 18 samples.

Results

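The BCL2 family decides at the outer membrane of mitochondria whether a stressed cell lives or dies. Considered here are 10 of its genes, in osteosarcoma cells sorted from bone tumors and in samples of lung metastases. They are the survival genes BCL2, BCL2L1, MCL1 and BCL2A1, the pore-forming effectors BAX and BAK1, and the BH3-only death genes BCL2L11, BID, PMAIP1 and BBC3. The genes were chosen by name, and a gene counted as measured where the platform annotation gave a probe set to it and to no other gene. This held for 9 of the 10 members, with 30 of the 41097 probe sets that name 1 gene. The single probe set of BBC3 (PUMA) also names other genes, so BBC3 is not described. All 9 measured members, and 27 of their 30 probe sets, passed the filter on dim signals and were among the 14418 genes tested. On GRCh38.p14 the survival genes lie at chr18:63123346-63320090 (BCL2), chr20:31664452-31723963 (BCL2L1), chr1:150574558-150579610 (MCL1) and chr15:79960892-79971196 (BCL2A1). The effectors lie at chr19:48954875-48961798 (BAX) and chr6:33572552-33580276 (BAK1), and the BH3-only genes at chr2:111120914-111168445 (BCL2L11), chr22:17734138-17774665 (BID) and chr18:59899996-59904305 (PMAIP1).

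The arrays hold transcript levels of 2 established human osteosarcoma lines, 143B and MNNG/HOS (MNNG below), both transformed derivatives of the HOS line. All cells had been transduced with the green fluorescent protein ZsGreen, stained with the membrane dye PKH26, which daughter cells share out when they divide, and implanted to grow as tumors in bone. The 18 arrays are 2 from MNNG lung metastases (MNNG_Lung), 3 from dye-retaining 143B cells (143B_High), 5 from dye-diluted 143B cells (143B_Low), 4 from dye-retaining MNNG cells (MNNG_High) and 4 from dye-diluted MNNG cells (MNNG_Low). The labels call the dye-retaining cells tumor-initiating cells and the dye-diluted cells bulk tumor cells. The High fraction of a bone tumor held 150000 sorted cells and the Low fraction 700000. The MNNG High and Low arrays come from the same 4 tumors, 2 of the 3 143B_High arrays pool 2 tumors each, and 1 lung array is a mixture. The sources used here do not say whether the lung cells were sorted. Each line is a single line, so the spread between arrays is that between tumors of 1 line.

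In this family the survival proteins hold BAX and BAK1 in check by binding a short helix called the BH3 domain. BH3-only proteins carry little more than that helix. They are made or activated under stress, occupy the survival proteins and free the effectors, which then open the mitochondrial membrane and release cytochrome c to the caspases. PMAIP1 (NOXA) binds mainly MCL1, BCL2L11 (BIM) binds all survival members, and BID is cut by the death receptor caspase CASP8 before it acts. MCL1, PMAIP1 and BCL2L11 proteins turn over quickly, so transcript and protein need not move together, and no protein was measured here.

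Values are log2 probe set signals as deposited, and a difference of 1 is a doubling of signal. Of several probe sets for a gene, the brightest on average stands for it. A difference is given with its standard error from limma, and a call is an adjusted p under 0.05 over all tested genes. Spread differed between arrays, with an interquartile range of 2.09 to 2.28 on the lung arrays, 3.26 to 3.34 in 143B_High, 3.30 to 3.48 in 143B_Low, 2.76 to 3.18 in MNNG_High and 3.29 to 3.40 in MNNG_Low. The date tags in the sample descriptions put all 143B arrays in 1 tag, the MNNG_High and lung arrays with 1 MNNG_Low array in another, and 3 of the 4 MNNG_Low arrays in the last, so line and tag cannot be told apart, and High and Low of MNNG nearly so. Of the osteoblast and mesenchymal markers checked, RUNX2, SPARC and COL1A1 averaged 10.50, 12.14 and 13.55 in MNNG_Low, while SP7 and ALPL, at 4.36 and 4.06, lay under the filter value of 5.36. In 143B_Low COL1A1 averaged 10.52 and RUNX2 8.83.

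**Figure D1:**
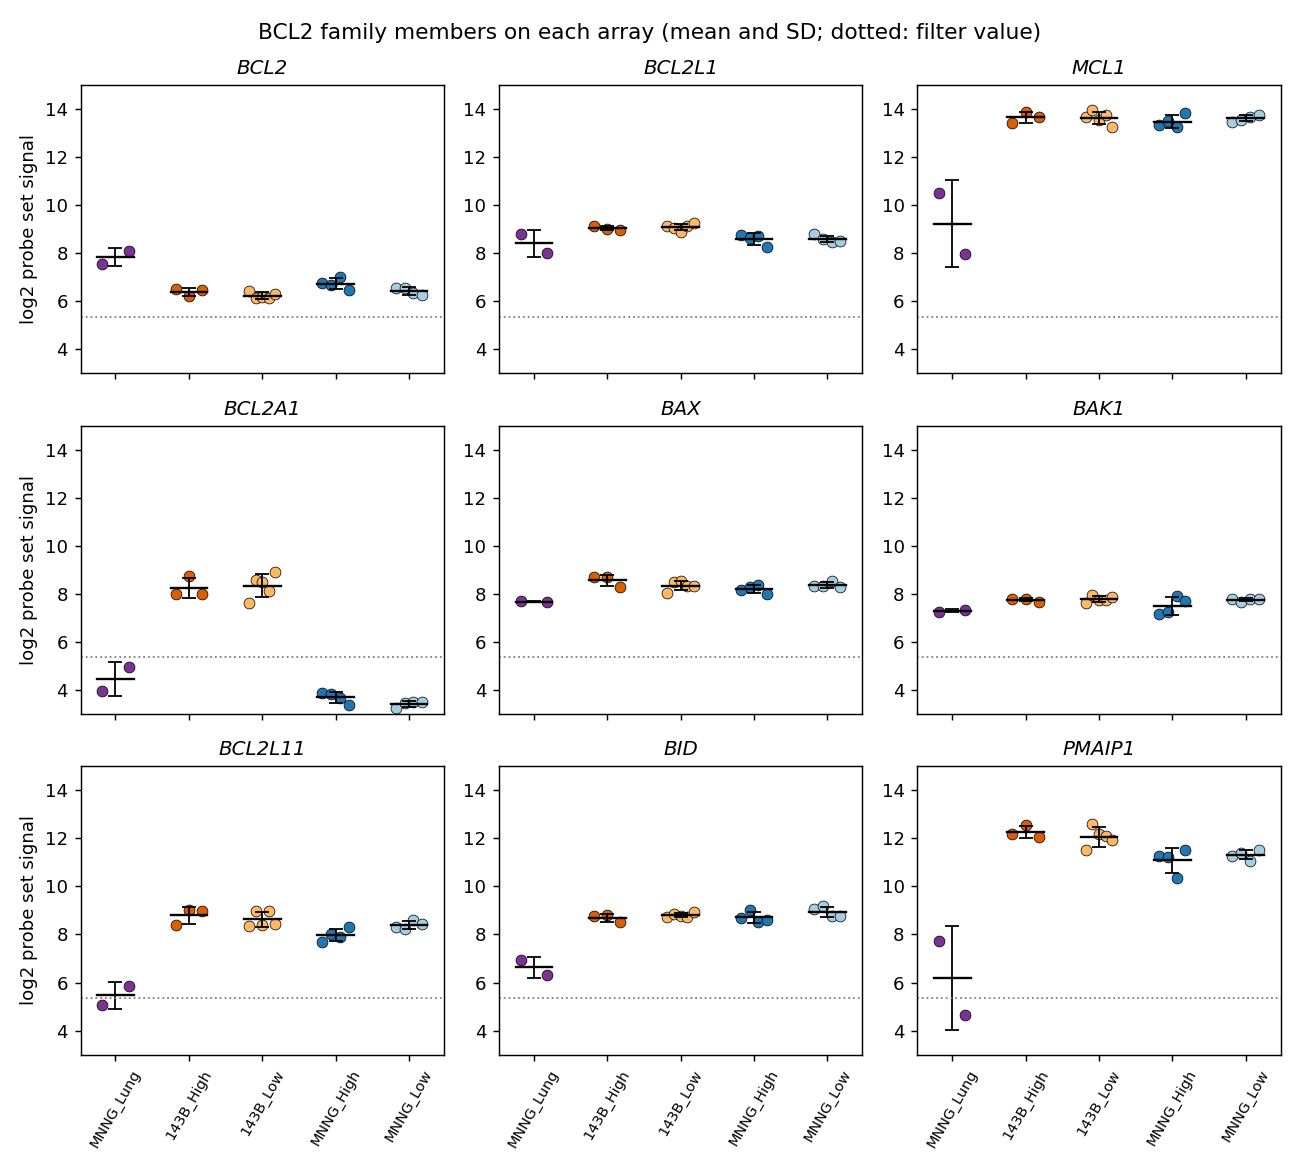
Log2 probe set signal (vertical axis) of the 9 measured BCL2 family members on each of the 18 arrays, by group (horizontal axis); points are arrays, long bars the mean and whiskers the SD, and the dotted line is the filter value of 5.36. BCL2A1 lies above the line on all 143B arrays and under it on all MNNG arrays, and MCL1 and PMAIP1 are lower on both lung arrays than on any bone tumor array.

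The comparison of the lines asked how the family differs between tumors of 143B and of MNNG. BCL2A1, a survival gene first known from blood cells and induced by the transcription factor NF-kappaB, separated the lines. Its signal was 7.99, 8.74 and 8.01 on the 143B_High arrays, against 3.88, 3.85, 3.67 and 3.37 on the MNNG_High arrays. In dye-diluted cells it was 7.63, 8.56, 8.50, 8.10 and 8.91 in 143B_Low, against 3.25, 3.46, 3.49 and 3.50 in MNNG_Low. No 143B array came near any MNNG array. The difference was 4.56 ± 0.27 between the High groups (adjusted p = 9.83e-10) and 4.91 ± 0.24 between the Low groups (adjusted p = 2.67e-11), both by limma. Among all tested genes, 0.0694% had a larger difference toward 143B between the High groups and 0.0555% between the Low groups. All MNNG arrays, lung included, lay under the filter value, so the direction is clear and the size is uncertain. BCL2A1 thus passed the filter through its 143B arrays alone. Its adjusted p and rank are those of a gene admitted by the line where it is high, and are given as description.

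BCL2A1 is also made by myeloid cells, so the summed signal of 12 macrophage and myeloid markers is given beside it. On a log2 scale that sum was 9.26 to 9.78 in 143B_High, against 9.97 to 10.92 in MNNG_High, and 8.74 to 9.02 in 143B_Low, against 8.90 to 9.22 in MNNG_Low. The sum was lower in 143B_High than in MNNG_High and overlapped between the Low groups. The brightest of the markers, AIF1, averaged 8.48 in 143B_High and 9.76 in MNNG_High. PTPRC averaged 3.59 and 4.06 there, under the filter value. The part of myeloid cells in the BCL2A1 signal was not tested. Of the 7 markers tested, none was called higher in either comparison, and 4 were called lower in 143B_High. As these are bulk samples, fewer cells of a type and less RNA per cell cannot be told apart.

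Among the other survival genes, BCL2L1 (BCL-XL) was 0.50 ± 0.15 higher in 143B_Low than in MNNG_Low (adjusted p = 0.0177). Its signal was 9.11, 9.07, 8.90, 9.12 and 9.26 in 143B_Low, against 8.79, 8.60, 8.45 and 8.52 in MNNG_Low, and the groups did not overlap. Without the MNNG_Low array of tumor MNNG-1233 the difference was 0.46 with an adjusted p of 0.0584. The call was also lost with the mean over probe sets (0.22, adjusted p = 0.0996) and after a second quantile normalization (0.50, adjusted p = 0.0561). Between the High groups BCL2L1 was 9.14, 9.01 and 8.97 in 143B_High and 8.77, 8.64, 8.72 and 8.25 in MNNG_High, a difference of 0.45 ± 0.17 that missed the threshold (adjusted p = 0.0508). MCL1 differed by 0.17 ± 0.37 between the High groups and by 0.02 ± 0.32 between the Low groups. The 95% intervals were -0.60 to 0.95 and -0.66 to 0.70, and differences within these bounds could not be told from 0.

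BCL2 gave different answers by probe set. Probe set 207004_at, which represents the gene, was 0.32 ± 0.16 below MNNG_High in 143B_High and passed no test. Probe set 203685_at was 4.82, 5.54 and 5.01 in 143B_High, against 3.49, 3.59, 3.36 and 3.67 in MNNG_High, and 5.36, 5.79, 5.31, 5.64 and 4.84 in 143B_Low, against 3.72, 3.73, 3.33 and 4.13 in MNNG_Low. The 143B and MNNG arrays did not overlap on it. It was 1.60 ± 0.22 higher in 143B_High (adjusted p = 2.75e-05) and 1.66 ± 0.19 higher in 143B_Low (adjusted p = 2.95e-06) by limma over 26556 probe sets. All MNNG arrays and part of the 143B arrays lay under the filter value of 5.36 on it, so the size of these differences is uncertain. This probe set passed the filter through 143B arrays alone, so its adjusted p is that of a probe set admitted by the line where it is high. The remaining 2 BCL2 probe sets passed no test between the lines.

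Among the death genes, BCL2L11 was 0.82 ± 0.22 higher in 143B_High than in MNNG_High (adjusted p = 0.0088), with 8.40, 9.01 and 8.99 in 143B_High and 7.69, 8.02, 7.90 and 8.31 in MNNG_High. The lowest 143B_High array lay just above the highest MNNG_High array, and without the pooled array 143B-51&52 the difference was 0.72 with an adjusted p of 0.0517. The call was also lost after a second quantile normalization (0.54, adjusted p = 0.0774), and the mean over probe sets differed by 0.39 (adjusted p = 0.0194). Of its 6 tested probe sets 3 were called higher in 143B_High, and probe set 1553088_a_at stood at -0.42 ± 0.21 without passing. Between the Low groups BCL2L11 differed by 0.24 ± 0.20 (adjusted p = 0.417). PMAIP1 was 12.18, 12.56 and 12.06 in 143B_High, against 11.28, 11.23, 10.33 and 11.52 in MNNG_High, groups that did not overlap. Its difference of 1.17 ± 0.47 had an adjusted p of 0.0577, and its second probe set, also at 1.17, had 0.022. BAX stood at 0.36 ± 0.15 (adjusted p = 0.0617), BAK1 at 0.26 ± 0.16 and BID at -0.01 ± 0.17 between the High groups.

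In all, 2 of the 9 members were called between the High groups, both higher in 143B, where 36.1% of all tested genes were called in either direction, 21.4% higher and 14.7% lower. Between the Low groups 2 members were called, both higher in 143B, beside 28.8% of all genes called, 14.4% higher and 14.5% lower. The median member difference was 0.36 between the High groups and 0.04 between the Low groups, and the medians over all genes were 0.01 and -0.04. Arrays of the groups did not overlap for 4 members between the High groups and for 2 between the Low groups, beside 42% and 38.3% of all genes. Counts by probe set were 8 of 27 between the High groups and 3 of 27 between the Low groups, where 32.7% and 27.1% of all probe sets were called. Fitted without the lung arrays, 5 members were called between the High groups, with PMAIP1 at an adjusted p of 0.0015, BCL2L1 at 0.0115 and BAX at 0.0431, where the same fit called 47.2% of all genes. The Low groups then gave 3, with PMAIP1 at 0.0147, beside 37.2% of all genes.

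Promoters of the 3 BCL2 family members with the largest differences between the High groups are shown, of which PMAIP1 missed the threshold. Each runs from 250 bases before to 50 bases after the start of the gene, as RefSeq gives it on GRCh38.p14. Capitals mark every match, on either strand, to the letters TATAAA of the TATA box, GGGCGG of the GC box, TGANTCA of the AP-1 site or CCAAT of the CCAAT box. The BCL2A1 promoter is chr15:79971147-79971446 on the minus strand, that of BCL2L11 chr2:111120664-111120963 on the plus strand and that of PMAIP1 chr18:59899746-59900045 on the plus strand.
BCL2A1: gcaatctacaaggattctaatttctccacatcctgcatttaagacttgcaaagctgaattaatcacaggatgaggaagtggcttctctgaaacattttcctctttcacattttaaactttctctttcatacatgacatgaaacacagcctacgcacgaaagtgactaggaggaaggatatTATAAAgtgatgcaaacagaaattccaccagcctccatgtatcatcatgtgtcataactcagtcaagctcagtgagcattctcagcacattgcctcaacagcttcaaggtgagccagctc
BCL2L11: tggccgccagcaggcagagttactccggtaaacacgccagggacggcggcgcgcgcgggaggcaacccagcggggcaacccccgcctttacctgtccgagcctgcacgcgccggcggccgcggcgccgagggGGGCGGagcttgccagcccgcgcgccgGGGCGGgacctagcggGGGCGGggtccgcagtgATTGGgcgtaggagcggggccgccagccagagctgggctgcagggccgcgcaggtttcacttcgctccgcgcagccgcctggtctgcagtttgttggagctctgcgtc
PMAIP1: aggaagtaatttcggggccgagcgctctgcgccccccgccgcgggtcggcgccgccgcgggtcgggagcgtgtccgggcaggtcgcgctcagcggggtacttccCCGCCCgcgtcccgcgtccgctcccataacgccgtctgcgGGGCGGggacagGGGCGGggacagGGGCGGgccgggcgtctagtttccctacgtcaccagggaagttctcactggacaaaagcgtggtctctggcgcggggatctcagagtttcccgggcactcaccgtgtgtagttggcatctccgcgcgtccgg
BCL2A1, the gene that separated the lines, holds 1 TATAAA, starting 70 bases before the gene's start, and no GGGCGG. BCL2L11 holds 3 GGGCGG and 1 CCAAT, and PMAIP1 holds 4 GGGCGG. BCL2L1, called between the Low groups and not shown, has 2 start sites, with 2 TATAAA and 1 GGGCGG. Of 35097 promoters of this length, 11.5% hold TATAAA, 44.9% GGGCGG, 7.71% TGANTCA and 34.6% CCAAT. No TGANTCA is present in the 3 windows shown, which says nothing of the factor's binding elsewhere.

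**Figure D2:**
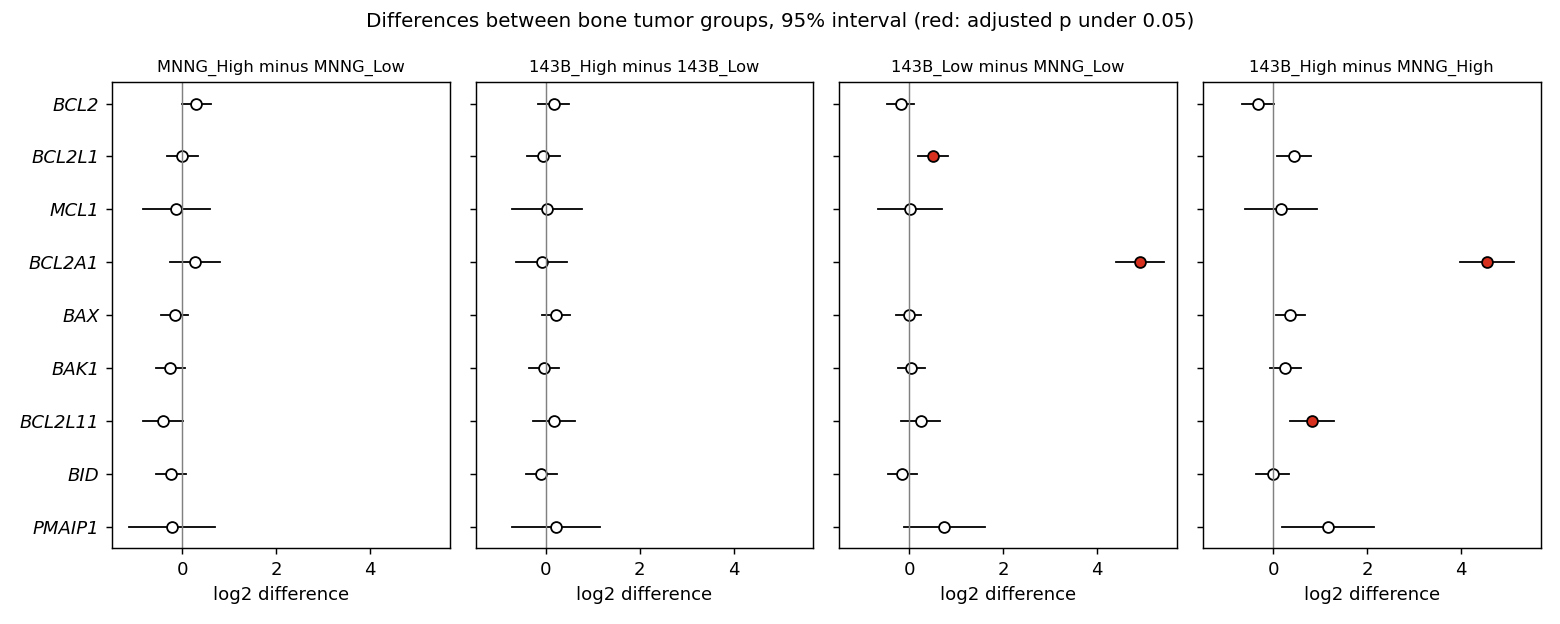
Log2 difference (horizontal axis) of each member between bone tumor groups, with the 95% interval; filled red points have an adjusted p under 0.05. BCL2A1 stands at 4.91 and 4.56 between the lines, and no member is filled in either comparison of High with Low.

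The comparison of dye-retaining with dye-diluted cells set cells sorted for high dye against cells sorted for low dye. The rate of division was not measured here. No member was called in MNNG (0 of 9 by limma, 0 at an unadjusted p under 0.05, beside 26.1% of all genes called, 10.6% higher and 15.5% lower), and none in 143B (0 of 9, 0 unadjusted, beside 0.00694% of all genes). The groups overlapped for all 9 members in both lines, while 29.8% of all genes in MNNG and 11.9% in 143B had groups that did not overlap. By probe set the count was 0 of 27 in both lines, beside 25.5% and 0.0113% of all probe sets, and 0 of 27 for the difference between the lines, beside 0.00377%. The difference between the lines in this contrast was called for no member either, beside 0.00694% of all genes, again with 0 at an unadjusted p under 0.05. These fits do not pair the High and Low arrays of a tumor. With the tumor as a block, 1 of the 9 members was called in MNNG and 3 had an unadjusted p under 0.05, in a fit that called 55.8% of all genes.

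In MNNG the largest member difference was that of BCL2L11. It was 7.69, 8.02, 7.90 and 8.31 in MNNG_High, against 8.33, 8.24, 8.58 and 8.42 in MNNG_Low, with the tumors in the same order in both groups. Every High array lay under the Low array of its own tumor, and the ranges overlapped. The difference was -0.41 ± 0.21 (adjusted p = 0.134), and it was the member called with the tumor as a block (adjusted p = 0.0432). The 6 BCL2L11 probe sets ran from -0.41 to 0.38, and 4 of them were below 0. Among the survival genes, BCL2 was 6.74, 6.66, 7.02 and 6.47 in MNNG_High, against 6.56, 6.56, 6.32 and 6.24 in MNNG_Low, higher in the High array of each tumor. Its difference was 0.30 ± 0.15 (adjusted p = 0.131, and 0.0600 with the tumor as a block). Among the arrays of date tag 2, which hold 1 MNNG_Low array, the differences were -0.35 for BCL2L11 (adjusted p = 0.931) and 0.16 for BCL2 (adjusted p = 0.943).

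MCL1, the survival protein most needed by many tumors, differed by -0.13 ± 0.34 in MNNG (95% interval -0.85 to 0.59) and by 0.02 ± 0.35 in 143B (-0.72 to 0.77). PMAIP1, its BH3-only partner, differed by -0.22 ± 0.43 in MNNG and 0.21 ± 0.45 in 143B. BCL2L1 differed by 0.00 ± 0.16 in MNNG (-0.33 to 0.34) and by -0.05 ± 0.17 in 143B (-0.40 to 0.29). Of the effectors, BAX differed by -0.16 ± 0.14 in MNNG and 0.22 ± 0.14 in 143B, and its second probe set, 208478_s_at, by 0.08 in MNNG and 0.40 in 143B. BAK1 differed by -0.26 ± 0.15 in MNNG and -0.04 ± 0.15 in 143B. BAK1 spread widely in MNNG_High, at 7.15, 7.23, 7.90 and 7.71, against 7.80, 7.65, 7.80 and 7.77 in MNNG_Low. BID differed by -0.24 ± 0.15 in MNNG and -0.10 ± 0.16 in 143B. It was 8.70, 9.02, 8.50 and 8.61 in MNNG_High, against 9.04, 9.20, 8.77 and 8.78 in MNNG_Low, lower in the High array of each tumor (adjusted p = 0.223, and 0.0627 with the tumor as a block). BAX was also lower in the High array of all 4 tumors, without passing either fit (adjusted p = 0.348 and 0.247). Under other normalizations, filters and fits the MNNG difference ran from -0.50 to 0.08 for BID and from -0.27 to 0.15 for BAX. Neither sign therefore held throughout. The median over the 9 members was -0.16 in MNNG and 0.02 in 143B, and over all genes it was -0.19 and -0.02.

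Markers of several other cell types were higher in MNNG_High than in MNNG_Low. Of the tested markers, 4 of 7 macrophage and myeloid, 2 of 2 neutrophil, 2 of 4 skeletal muscle, 2 of 6 lung epithelium, 1 of 3 endothelial and 1 of 3 erythroid genes were called higher, beside 10.6% of all genes. None of these was called lower, and no osteoblast or lymphocyte marker was called in either direction. The filter counted the High and lung arrays too, so the tested markers lean toward those that are high there. Of 8 neutrophil markers measured, 2 were tested, and LTF among them reached the filter value only on lung and MNNG_High arrays. These counts are given as description. The summed signal of the 12 macrophage and myeloid markers was 9.97 to 10.92 in MNNG_High and 8.90 to 9.22 in MNNG_Low on the log2 scale. PTPRC and CD14, defining markers of these cells, averaged 4.06 and 5.55 in MNNG_High, against 3.23 and 5.46 in MNNG_Low, all near or under the filter value. AIF1 averaged 9.76 in MNNG_High and 7.42 in MNNG_Low. BCL2A1, which myeloid cells also make, averaged 3.69 ± 0.23 in MNNG_High and 3.42 ± 0.12 in MNNG_Low (SD, n = 4 each). The part of these cells in the member values was not tested.

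The lung metastases were set against bone tumor cells of the same line. Their arrays stood apart from all others, so values are given for each lung array. Of the 9 members, 2 were called higher and 6 lower against MNNG_Low, where 87% of all tested genes were called, 35.1% higher and 51.9% lower. Against MNNG_High 2 were called higher and 5 lower, beside 82.4% of all genes, 34.8% higher and 47.6% lower. By probe set 9 of 27 were called higher and 15 lower against MNNG_Low, beside 84.4% of all probe sets called, and 10 higher and 12 lower against MNNG_High, beside 78.5%. The median difference from MNNG_Low was -0.69 over the members and -0.64 over all genes, and from MNNG_High -0.53 and -0.37. Groups did not overlap for 8 members against MNNG_Low and 7 against MNNG_High, beside 85.7% and 77.6% of all genes.

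MCL1 was 10.52 on the lung array of MNNG-1233 and 7.95 on the lung mixture, against 13.47, 13.54, 13.69 and 13.73 in MNNG_Low. It fell by 4.38 ± 0.42 against MNNG_Low (adjusted p = 1.43e-08) and by 4.24 ± 0.42 against MNNG_High (adjusted p = 3.07e-08). All 5 of its tested probe sets were called lower against MNNG_Low, from -5.97 to -1.30. PMAIP1 was 7.73 on the lung array of MNNG-1233 and 4.65 on the mixture, against 11.28, 11.39, 11.07 and 11.50 in MNNG_Low, and fell by 5.12 ± 0.53 (adjusted p = 4.31e-08). For both genes the mixture was the lower array, by more than 2 log2 units. Without the mixture the differences from MNNG_Low were -3.09 for MCL1 and -3.58 for PMAIP1.

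MCL1 and PMAIP1 belong to the 1969 tested genes with a mean of at least 10 in MNNG_Low. Over those genes the median difference of lung from MNNG_Low was -4.09, with quartiles of -4.96 and -2.68. MCL1 lay within these quartiles and PMAIP1 just under the lower one. BID, the substrate of CASP8, was 6.94 on the lung array of MNNG-1233 and 6.33 on the mixture, against 9.04, 9.20, 8.77 and 8.78 in MNNG_Low. It fell by 2.31 ± 0.19 (adjusted p = 1.44e-09), and all 3 of its probe sets were called lower. BID averaged 8.95 in MNNG_Low and is not among the 1969 genes. Of all tested genes, 30.1% had a lower difference than BID, and genes of like signal were not compared.

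**Figure D3:**
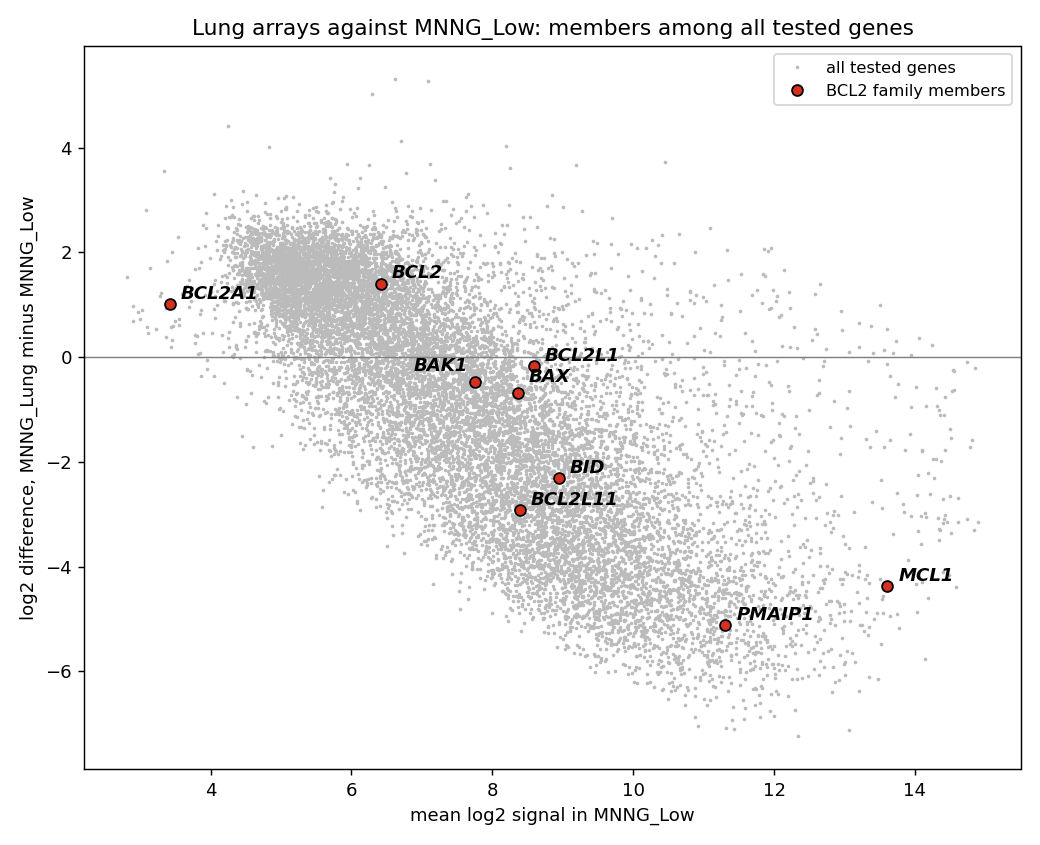
Log2 difference of the lung arrays from MNNG_Low (vertical axis) against the mean log2 signal in MNNG_Low (horizontal axis) for the 14418 tested genes (grey) and the 9 members (red). Brighter genes are lower in lung, with a median of -4.09 at a signal of 10 or more, and MCL1 and PMAIP1 lie among them.

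BCL2 was 7.56 on the lung array of MNNG-1233 and 8.09 on the mixture, against 6.56, 6.56, 6.32 and 6.24 in MNNG_Low and 6.74, 6.66, 7.02 and 6.47 in MNNG_High. By this probe set, 207004_at, it rose by 1.40 ± 0.18 against MNNG_Low (adjusted p = 8.7e-07) and by 1.10 ± 0.18 against MNNG_High (adjusted p = 2.08e-05). Of its 4 probe sets 3 were called higher in both. The other, 203685_at, averaged 3.83 in lung, against 3.73 in MNNG_Low and 3.53 in MNNG_High, all under the filter value. Of all tested genes, 18.7% had a larger difference than BCL2 from MNNG_Low. BCL2 averaged 6.42 in MNNG_Low, and dim genes as a whole were higher on the lung arrays. Without the filter 9895 of 19775 genes were called higher against MNNG_Low, with a median difference of 0.43. Whether the rise of BCL2 differs from that of genes of like signal was not tested. BCL2A1 was 3.94 and 4.94 in lung, against 3.25 to 3.50 in MNNG_Low, and was called 1.01 ± 0.31 higher (adjusted p = 0.00536). All these values lie under the filter value, and without the mixture the difference was 0.51 with an adjusted p of 0.186. BCL2L1 split the lung arrays, at 8.82 on that of MNNG-1233 and 8.02 on the mixture, against 8.45 to 8.79 in MNNG_Low. Its difference of -0.17 ± 0.20 was not called (adjusted p = 0.416), while without the array of MNNG-1233 it was -0.57 with an adjusted p of 0.0117, and 2 of its 3 probe sets were called higher. After a second quantile normalization it was 1.48.

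BAX and BCL2L11 depended on the probe set, and BAX and BAK1 on the normalization. BAX, by the probe set that represents it, was 7.68 and 7.67 in lung, against 8.31, 8.33, 8.53 and 8.29 in MNNG_Low, a called difference of -0.69 ± 0.17 (adjusted p = 0.00084) that turned to 0.60 after a second quantile normalization. Its other probe set, 208478_s_at, was 8.89 and 9.05 in lung, against 8.19, 8.10, 8.21 and 8.11 in MNNG_Low, and was called 0.82 ± 0.17 higher (adjusted p = 0.00019). The 2 probe sets thus gave opposite calls for one gene. BAK1 was 7.24 and 7.33 in lung, against 7.65 to 7.80 in MNNG_Low, a called difference of -0.47 ± 0.18 (adjusted p = 0.0204) that turned to 0.50 after a second quantile normalization. It was not called against MNNG_High (-0.21 ± 0.18, adjusted p = 0.279).

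BCL2L11 was 5.07 and 5.88 in lung, against 8.33, 8.24, 8.58 and 8.42 in MNNG_Low, by probe set 225606_at, a difference of -2.92 ± 0.25 (adjusted p = 3.7e-09). Probe set 1553088_a_at was 8.76 and 8.68 in lung, against 7.15, 7.33, 7.00 and 7.14 in MNNG_Low. Probe set 1558143_a_at was 9.09 and 8.99 in lung, against 7.36, 7.60, 7.69 and 7.37. Both of the last were called higher, by 1.57 ± 0.24 and 1.54 ± 0.21, and 3 of the 6 BCL2L11 probe sets were called lower. The mean over its probe sets differed by -0.13 from MNNG_Low, with an adjusted p of 0.404. No direction is therefore given for BCL2L11, BAX or BAK1 in lung. Against the single MNNG_Low array of date tag 2, which shares its tag with the lung arrays, the lung arrays differed by -4.24 for MCL1, -5.09 for PMAIP1, -2.40 for BID and 1.26 for BCL2. With 1 array on that side, these are given as values without a test.

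**Figure D4:**
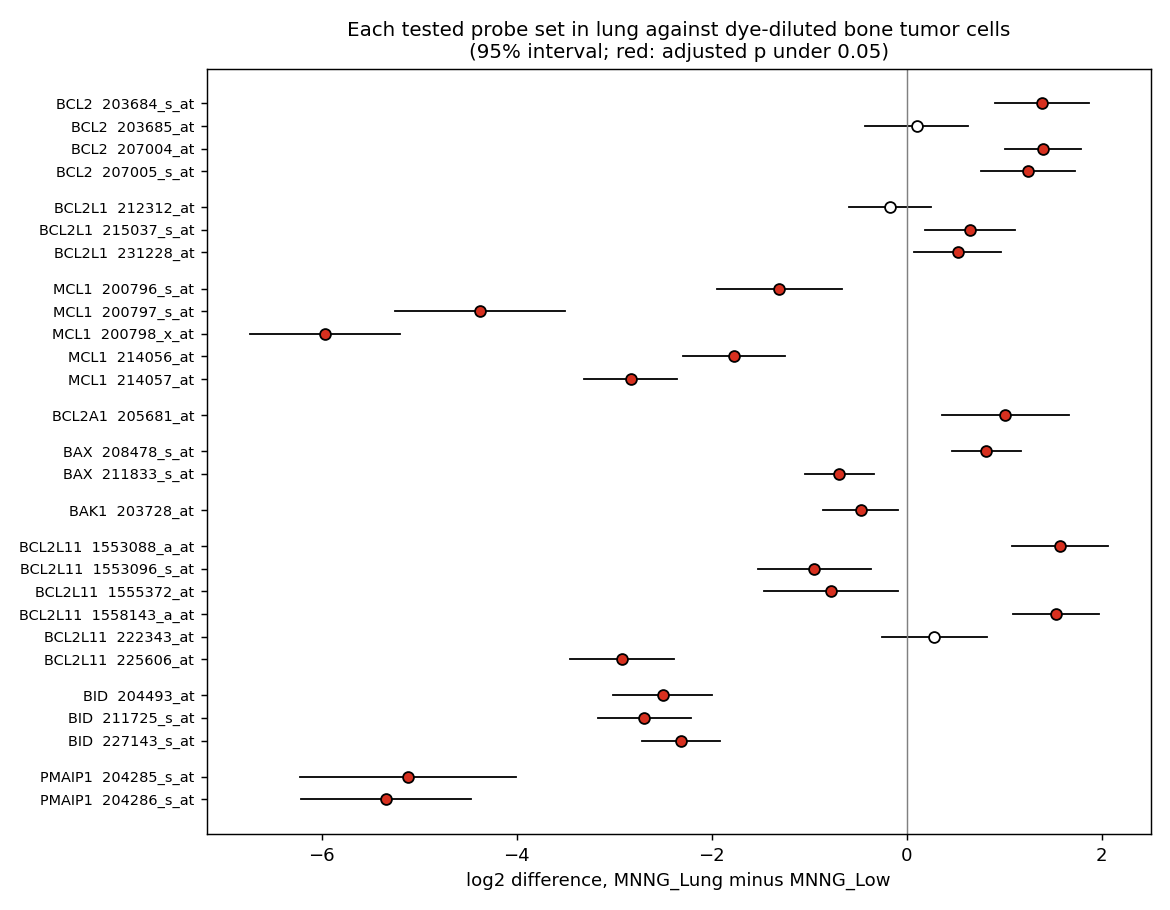
Log2 difference of the lung arrays from MNNG_Low (horizontal axis) with its 95% interval for each of the 27 tested probe sets of the 9 members (vertical axis); filled red points have an adjusted p under 0.05. All probe sets of MCL1, BID and PMAIP1 lie below 0, and those of BAX and BCL2L11 lie on both sides.

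Markers of other cells were higher in lung too. All 7 tested macrophage and myeloid markers and all 6 tested lung epithelium markers were called higher against MNNG_Low. The summed myeloid signal was 11.09 to 11.30 on the log2 scale in lung, against 8.90 to 9.22 in MNNG_Low, and the lung epithelium sum was 10.03 to 10.38, against 8.73 to 8.84. The lung markers SFTPC and SCGB1A1 averaged 8.46 and 6.20 in lung, against 6.66 and 3.61 in MNNG_Low. Of the 7 tested osteoblast and mesenchymal markers, 3 were called lower in lung and none higher, beside 51.9% and 35.1% of all genes. These were RUNX2, at -3.83 ± 0.27, SPARC, at -5.13 ± 0.55, and COL1A1, at -4.57 ± 0.95. The markers SP7, ALPL and IBSP, which are not among the 7, averaged 6.38, 6.04 and 6.58 in lung, against 4.36, 4.06 and 4.50 in MNNG_Low. Of the tested muscle markers 3 of 4 were called higher, as were all 3 red cell, all 3 endothelial and both neutrophil markers and 2 of 3 lymphocyte markers. LTF, ALAS2 and CD3E, which are among these tested markers, reached the filter value only on lung and MNNG_High arrays. Such counts follow in part from the filter and are given as description. The part of any of these cells, or of the narrower spread of the lung arrays, in the member values was not tested.

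Around the members, genes of the death receptor arm differed between the lines. These receptors at the cell surface activate CASP8, which cuts BID. In 143B_High 6 of the 11 tested were called higher and 1 lower than in MNNG_High, and in 143B_Low 4 were higher and 1 lower than in MNNG_Low, where 21.4% and 14.4% of all genes were called higher and 14.7% and 14.5% lower. The list medians were 0.70 and 0.11, beside 0.01 and -0.04 over all genes. FAS, the receptor of FAS ligand, was 1.88 ± 0.19 higher in 143B_High and 2.07 ± 0.17 higher in 143B_Low. TNFRSF10D, a TRAIL receptor without a working death domain, was lower, at -3.80 ± 0.31 in 143B_High and -4.30 ± 0.27 in 143B_Low. CFLAR, an inhibitor of CASP8 activation, was 0.76 ± 0.15 higher in 143B_High, and TNFRSF10B, a TRAIL receptor with a death domain, 0.87 ± 0.24 higher in 143B_Low.

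Downstream of the mitochondria, 5 of 15 apoptosome, caspase and inhibitor genes were called higher and 2 lower in 143B_High against MNNG_High, and 2 were higher and 5 lower in 143B_Low against MNNG_Low. BIRC5 (survivin), an inhibitor of apoptosis made in dividing cells, was lower, at -1.10 ± 0.28 in 143B_High and -1.42 ± 0.25 in 143B_Low. HTRA2, a protease that leaves mitochondria with cytochrome c, was 1.26 ± 0.21 higher in 143B_High. CASP9, the caspase of the apoptosome, was lower, at -0.49 ± 0.11 in 143B_Low. Among 18 mitochondrial partners, 5 were higher and none lower in 143B_High, and 3 were higher and 3 lower in 143B_Low. PPIF, the cyclophilin of the permeability pore, was 1.22 ± 0.15 higher in 143B_High and 0.78 ± 0.13 higher in 143B_Low. The list medians for apoptosome genes and mitochondrial partners were 0.21 and 0.20 between the High groups and 0.13 and 0.05 between the Low groups. Of all genes, 21.4% were called higher and 14.7% lower between the High groups, and 14.4% and 14.5% between the Low groups.

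Of 12 other BCL2 relatives, BOK, an effector relative of BAX, was the gene called between the High groups, at 0.95 ± 0.19, and it was 0.97 ± 0.17 higher in 143B_Low. BMF, a BH3-only gene, was 0.66 ± 0.19 higher and BAD, another, was lower, at -0.28 ± 0.10, in 143B_Low. DUSP6, a phosphatase that switches off ERK, the kinase that marks BCL2L11 protein for destruction, was 1.29 ± 0.27 higher in 143B_High and 1.41 ± 0.24 higher in 143B_Low. It is 1 of 11 turnover genes, of which 4 were called higher and 3 lower in 143B_High, and 1 in each direction in 143B_Low. RELA, the NF-kappaB subunit, was 0.91 ± 0.19 higher in 143B_High and 0.58 ± 0.16 higher in 143B_Low, while NFKB1 differed by 0.28 ± 0.20 and 0.05 ± 0.18 without passing. MYC was lower, at -0.68 ± 0.15 in 143B_High and -1.03 ± 0.14 in 143B_Low. Of the 12 regulators tested, 2 were higher and 3 lower in 143B_High, and 1 was higher and 2 lower in 143B_Low. The shares of all genes beside these lists are again 21.4% higher and 14.7% lower in 143B_High, and 14.4% and 14.5% in 143B_Low.

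PMAIP1 is a p53 target, and 13 p53 targets outside the family were tested beside it. In 143B_High 3 were called higher and none lower, beside 21.4% and 14.7% of all genes, with GADD45A, a stress gene, at 1.20 ± 0.31. In 143B_Low 2 were higher and 1 lower, beside 14.4% and 14.5% of all genes, with the nuclease AEN at 0.88 ± 0.17. Both counts of higher targets are near these shares. CDKN1A, the p53 target that halts the cell cycle, differed by 0.24 ± 0.19 between the High groups and 0.13 ± 0.17 between the Low groups and passed neither test. The list medians were 0.24 and 0.13.

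Between MNNG_High and MNNG_Low, where no member was called, some of these genes were. Of 15 apoptosome and caspase genes 4 were called lower and none higher, beside 15.5% and 10.6% of all genes, with a list median of -0.42 beside -0.19 over all genes. Without the lung arrays 8 of them were called lower, in a fit that called 44.4% of all genes in either direction. APAF1, the scaffold of the apoptosome, was lower, at -0.73 ± 0.20, and DFFB, the nuclease that cuts DNA in dying cells, at -0.70 ± 0.16. Of 18 mitochondrial partners 6 were lower and none higher, among them MFN1, which fuses mitochondria, at -0.79 ± 0.14 and the calcium channel ITPR2 at -1.04 ± 0.22. CASP8 was lower, at -0.64 ± 0.21, as 1 of the 11 death receptor genes. HRK, a BH3-only gene, was 0.60 ± 0.18 higher and BCL2L13 was lower, at -0.48 ± 0.14, among the 12 relatives, of which 1 was higher and 2 lower. Of 12 regulators 3 were called higher and none lower, with STAT3, an inducer of MCL1 and BCL2L1, at 0.57 ± 0.17. Of 13 p53 targets 2 were lower, and of 11 turnover genes 3 were higher and 2 lower, with FBXW7, which marks MCL1 protein for destruction, at 0.67 ± 0.18. Without the lung arrays 3 death receptor genes were lower, 2 relatives were higher and 3 lower, and 1 p53 target was higher and 3 lower. With the date tag as a covariate 3 of all 14418 genes were called. In 143B no gene of these 7 lists was called between High and Low.

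In lung, 51.9% of all tested genes were called lower against MNNG_Low and 35.1% higher. Among the lists, 14 of 15 apoptosome and caspase genes, 16 of 18 mitochondrial partners, 10 of 13 p53 targets and 8 of 11 death receptor genes were called lower, with none, none, 1 and 2 called higher. Of 11 turnover genes 7 were called lower and 3 higher, and of 12 regulators 5 lower and 3 higher. The list medians were -2.71, -2.84, -2.12, -1.80, -0.65 and -0.38 in this order, beside -0.64 over all genes. CYCS (cytochrome c) differed by -5.92 and BNIP3, a mitophagy gene of the family's wider circle, by -7.24. Brighter genes fell further in lung whatever their list. Over the 1969 genes with a mean of at least 10 in MNNG_Low the median was -4.09, and the lowest 5% lay under -5.98. The lists were not matched for signal, and whether they differ from genes of like signal was not tested. Of the 12 BCL2 relatives 4 were called higher and 6 lower.

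Across all 18 arrays, MCL1 and PMAIP1 had a Pearson correlation of 0.968, and MCL1 and BID one of 0.949. These points share the split between lung and bone tumor arrays. Over the 16 bone tumor arrays with group means subtracted, MCL1 correlated with BCL2L11 at 0.794, with PMAIP1 at 0.580 and with BID at -0.124, and BCL2 correlated with PMAIP1 at -0.784. These are descriptions without a test, and the arrays also share their spread and date tag. The tested genes most like BCL2A1 over 18 arrays were NAP1L2 and MMP1, each with a correlation of 0.989. Those most like MCL1 were DNAJA1 (0.995) and USP1 (0.994), and those most like PMAIP1 were COA4 (0.991) and ADNP (0.990). For BCL2 they were LINC01193 (0.988) and SPPL2C (0.987), with a median correlation of -0.489 over all tested genes. With group means subtracted over 16 arrays, ZNF24 (0.953) was most like MCL1 and STK38 (0.930) most like BCL2L11.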

How the data were processed

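Transcript levels were measured on Affymetrix human 3' expression arrays. The authors deposited log2 signals per probe set, computed with RMA according to the submitters' processing notes. RMA corrects background, quantile-normalizes arrays and summarises probes. The sources used here do not state its version or which arrays were normalized together. A change shared by most genes can be lost in quantile normalization, and no detection call was used.

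Sample titles gave the groups and tumor numbers. Of 54675 probe sets, 41097 name 1 gene, 1801 several and 11777 none. The probe set brightest on average stands for a gene. Genes were tested where at least 3 arrays reached 5.36, the table's median (14418 of 19775). Differences were tested with limma 3.58.1 in R 4.3.3 in 1 fit over 18 arrays with 5 group means, 7 comparisons and Benjamini-Hochberg adjustment over all genes, with a threshold of 0.05. The same fit was run on 26556 probe sets. On simulated data built for MNNG_High against MNNG_Low over 14418 genes, 100% of 4-fold and 87% of 2-fold changes were called. The simulated noise was independent between genes, without date tags, shared tumors or differences in spread between arrays. These shares therefore need not hold for the real arrays. Promoters and symbols come from RefSeq tables of GRCh38.p14. The members, the lists around them and the rule for named genes (all members, up to 3 called genes with the smallest p for each list and comparison, and single genes with a named role given as not passing) were chosen with earlier results of these data known. For likeness, the 2 genes with the highest correlation were taken for each member, and part of them are named.

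High and Low arrays with one tumor number come from one tumor. Their deviations from group means correlated over genes at 0.494, 0.370, 0.299 and 0.579 for the MNNG tumors and 0.542 for 143B-1253. The pool 143B-51&52 had -0.192 and 0.529 with its 2 tumors, and the pool 143B-54&55 had 0.243 and 0.0626. Alternatives were other normalizations, filters and probe set rules, fits on fewer groups, array weights, a variance trend, the tumor as a block, the date tag and leaving out each array. The number of arrays limits the precision.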

Additional observations from a re-analysis of the deposited data

Results flagged for a closer look

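BAX in MNNG_Low was 8.53 in tumor MNNG-1233, against 8.31, 8.33 and 8.29 in the other tumors, a gap large for the range of 4 values. It is 1 of 27 member groups checked for a single array apart from the rest, and chance gives about 1 in 20.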

How the results depend on the processing

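BCL2A1 was called higher in 143B under every alternative run, with a lowest difference of 4.31 between the High groups (without 1 array). The number of members called between the High groups was 2, and it was 6 with array weights, 4 with the mean over probe sets, 4 with median centring, 5 without the lung arrays and 1 after a second quantile normalization, in fits that called 53.3%, 39%, 34.8%, 47.2% and 26.9% of all genes. Leaving out 1 array gave 1 (without pool 143B-51&52) to 4 (without MNNG_High of MNNG-1233), in fits that called 24% and 29.4% of all genes. Between the Low groups 2 members were called, with 1 from the mean over probe sets and 1 from a second quantile normalization. These fits called 28.8%, 32.6% and 22.2% of all genes. When 1 array was left out, 1 to 2 were called (1 without MNNG_Low of MNNG-1233), beside 23.9% to 26.1% of all genes. MNNG_High against MNNG_Low gave 0 members, 1 with array weights (BAK1, -0.44) and 1 with the replicate block (BCL2L11, -0.41), which pairs tumors. These fits called 26.1%, 39.3% and 55.8% of all genes. Without 1 array 0 to 0 members were called, beside 9.54% to 41.2% of all genes. The block changed no other member's call. Lung against MNNG_Low gave 8 members and 5 with array weights, in fits that called 87% and 69.7% of all genes. Without 1 array it gave 7 to 8, beside 85.1% to 86.2% of all genes. Lung against MNNG_High gave 7, beside 82.4% of all genes, and 5 to 8 under other alternatives, in fits that called 61.9% to 84.3% of all genes. Without 1 array it gave 6 to 8, beside 80.1% to 83.1% of all genes. By probe set, the High groups gave 8 calls, 3 after a second quantile normalization and 3 to 9 without 1 array (3 without pool 143B-51&52, 4 without pool 143B-54&55 or MNNG_High of MNNG-1231). The Low groups gave 3, 9 without the lung arrays and 2 to 5 without 1 array (5 without 143B_Low of 143B-1254, 2 without MNNG_Low of MNNG-1233 or MNNG-1235). MNNG_High against MNNG_Low gave 0, 2 without the lung arrays and 0 to 3 without 1 array (3 without MNNG_High of MNNG-1232), and lung 21 to 24 against MNNG_Low and 19 to 23 against MNNG_High. The main fits called 32.7%, 27.1%, 25.5%, 84.4% and 78.5% of all probe sets in these comparisons, in this order. Shares of all probe sets under the alternatives are not given, so these counts are not read as changes in the members.

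Some differences changed sign. After a second quantile normalization, lung differences from MNNG_Low were 0.50 for BAK1, 0.60 for BAX and 1.48 for BCL2L1, and from MNNG_High 0.46, 0.45 and 1.17. With the mean over probe sets, lung differences from MNNG_Low were 0.064 for BAX and 0.50 for BCL2L1, and from MNNG_High 0.11 and 0.40, and BCL2 between the High groups stood at 0.30. The cause was not tested. The median of all genes in lung against MNNG_Low was -0.64, -0.11 after a second quantile normalization and -1.02 with median centring. Within date tag 2, or with the tag as a covariate, lung against MNNG_Low rests on 1 MNNG_Low array, assumed to vary like the other groups. Differences there ran from -5.09 for PMAIP1 to 1.26 for BCL2. BAK1 was not called in either fit and BAX not within the tag. Of the member differences, 627 kept their side of the threshold under other alternatives, 20 gained a call, 21 lost one and 11 that were called in one of the fits changed sign, and 526 kept it without 1 array, where 7 gained and 7 lost a call. Among those that kept their side without a call, 28 changed sign under other alternatives and 24 without 1 array.

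Over all genes, MNNG_High against MNNG_Low gave 3761 calls (1532 higher, 2229 lower), 1028 after a second quantile normalization (744 higher, 284 lower), 4710 with median centring (989 higher, 3721 lower), 2317 with only those groups, 5670 with array weights, 6407 without the lung arrays, 8044 with the replicate block, 3 after adding the date tag to the fit and 0 within tag 2. The Low groups gave 4158, 6529 with only those groups and 7024 with array weights. The High groups gave 5203 (3081 higher, 2122 lower) and 3882 after a second quantile normalization (1836 higher, 2046 lower). In 143B, High against Low gave 1, 9 with only those groups, 201 with array weights, 7 with the replicate block and 0 after a second quantile normalization. The difference between the lines gave 1, 234 with array weights and 5 with the replicate block.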
